A study of Homo sapiens with 6 samples.

Results

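HCT116 is a human colon carcinoma cell line, and here its RNA was compared between a stable line made to over-express the wild type transcription factor TEAD4 and a control line. The members are the 4 libraries whose titles name these lines, 2 of each, out of 6 libraries in all. The other 2 libraries came from a line over-expressing TEAD4 K178R, a mutant whose name stands for lysine replaced by arginine. All 3 lines share the HCT116 background, and no treatment is named for any library. The control line is labelled only as control, with the letters PQ in its titles, which no source used here explains. The wild type libraries carry TEAD4 wild type as genotype in replicate 1 and TEAD5 wild type in replicate 2. The title of replicate 2 names wild type TEAD4, and the library was grouped by its title. The vector, its promoter, and whether each line is a clone or a pool of cells are not stated in any source used here. Each construct is represented by a single line, so an effect of TEAD4 cannot be told apart from other differences between the lines.

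TEAD proteins bind DNA through a TEA domain and have little activity alone. Their activity depends on coactivators, YAP1 and TAZ (gene WWTR1), which the kinases of the Hippo pathway keep out of the nucleus, and VGLL proteins compete for the same surface. In epithelial cells the pathway is known for linking contact, tension and growth signals to genes of the cytoskeleton, the matrix and the cell cycle.

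Values are FPKM, fragments scaled by transcript length and by the library's total, so levels are per length and can be compared between genes. Of 20026 gene rows, 11445 reached 0.5 FPKM in at least 2 libraries and were tested. A gene could pass through the 2 libraries of 1 line alone, which favours higher calls for that line near the filter. A gene is called where limma, fitted across these genes on log2(FPKM + 1), gave a Benjamini-Hochberg adjusted p under 0.05, and all log2 changes below are wild type TEAD4 minus control on that scale. Adding 1 makes changes of genes with low FPKM look smaller. Each test was run on the deposited FPKM and again after median-of-ratios scaling, which divides a library by its median ratio to the geometric mean of all libraries. Below, "rose" and "fell" are used for genes called in the same direction without and with that scaling, and calls that held only one way are named as such. No source tells whether both libraries of a line are from different cultures, so p-values measure the spread between libraries, which may be technical. With 2 libraries against 2, an exact permutation test of a gene could not go below p = 0.333.

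The 6 libraries summed to between 283195 and 305329 FPKM, and the number of reads behind them is unknown. Between 14386 and 14403 genes were above 0 in the control libraries, and 14707 and 14716 in the wild type libraries. The median difference between replicates, over 4556 genes with a mean of at least 10 FPKM, was 2.80% in the control line and 3.08% in the wild type line. Of 10 colon epithelial markers, 7 reached 0.5 FPKM in a library, and their sum was 2696 to 2744 FPKM in control and 1849 to 1907 in wild type. KRT8 and KRT18, described below, make up most of that sum. Markers of cells that a pure culture should lack were low in both lines. Fibroblast markers summed to 1.53 to 1.76 FPKM in control and 3.64 to 3.79 in wild type, mostly COL1A1, with COL1A2, DCN, LUM, PDGFRA, THY1 and POSTN at 0. Leukocyte markers summed to 4.60 to 5.62 and 5.73 to 6.07 FPKM, with CD3E and MS4A1 at 0. Endothelial markers summed to 2.03 to 2.15 and 1.97 to 2.48 FPKM, with ERG, CLDN5 and EMCN at 0.

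TEAD4 RNA was about 5-fold higher in the wild type line. The control libraries held 16.6 and 17.5 FPKM of TEAD4 and the wild type libraries 86.4 and 84.4, with the library labelled TEAD5 in its genotype field being the second of these. Both wild type libraries lay far above both controls (ratio of means 5.01, log2 2.26, SE 0.034, adjusted p = 2.06e-07). TEAD5 is listed by RefSeq as another name of TEAD3. TEAD3 stood at 7.28 and 7.19 FPKM in control and at 8.52 and 7.76 in wild type, so the library with that label held the lower of the 2 wild type levels. Reads of the introduced and of the cell's own TEAD4 cannot be told apart in a value per gene. The other TEAD and cofactor genes changed less. TEAD1 went from 18.7 and 18.4 FPKM to 11.5 and 11.7, and the TAZ gene WWTR1 from 5.84 and 5.83 to 4.48 and 4.39; both fell. TEAD2 was not called (5.99 and 6.65 FPKM in control, 6.61 and 5.97 in wild type). YAP1, VGLL4 and TEAD3 were called higher on the deposited values and were not called after scaling (log2 0.17, 0.23 and 0.15 before it). Of 8 tested members of the list of TEAD factors and cofactors, 4 were thus higher and 2 lower, and 1 and 2 after scaling, where the shares over all tested genes were 37.6% and 12.2%, and 22.5% and 25.2% after scaling (median log2 0.16, and 0.046 after scaling, against 0.093 and -0.0081 over all genes).

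Small shifts spread over much of the transcriptome separated the wild type line from the control line, and few genes changed strongly. On the deposited values 4309 genes were called higher, which is 37.6% of the genes tested, and 1402 lower, 12.2%. After median-of-ratios scaling 2572 were higher (22.5%) and 2884 lower (25.2%). All of the 2572 and all of the 1402 were called in the same direction both ways. The scaling lowers every wild type value relative to control, so this follows largely from its construction. The scaling took 1737 genes out of the higher calls and added 1482 to the lower ones, and no gene went from a higher to a lower call. It moved the median of all genes by 0.101, from 0.0926 to -0.00813 on the log2 scale, and the share of higher genes among all calls from 75.5% to 47.1%. Asking for both calls thus removed rises and no falls, and was a stricter condition for rises than for falls. Most calls made both ways were small: 673 genes rose and 115 fell by a log2 of at least 0.5 on the deposited values, and 67 rose (0.585% of those tested) and 22 fell (0.192%) by at least 1. With that size asked for after scaling as well, 398 rises and 115 falls reached 0.5, and 50 and 22 reached 1. In RNA from whole cultures, more cells expressing a gene and more RNA per cell cannot be told apart.

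The direction of the calls went with the level of the gene. Among the 1078 tested genes with a mean under 1 FPKM, 35.5% were higher and 3.99% lower. Among the 453 genes at 100 FPKM and over, 35.3% were higher and 29.1% lower. The gap was wider after scaling, with 26.8% higher and 5.47% lower among the genes under 1 FPKM, and 10.6% higher and 53.6% lower among those at 100 and over. Median log2 changes ran from 0.16 in genes of 1 to 3 FPKM to 0.022 in genes of 30 to 100. With 1 added to each value, the scaling moves low genes less than abundant ones. ADGRF1 went from log2 -1.19 to -1.24 by scaling, and the abundant RPL37A from 0.28 to 0.15. The wider gap after scaling thus follows at least in part from the method. The filter also favours higher calls near 0.5 FPKM. Whether the pattern on the deposited values lies in the cells, in the filter or in the way the values were made was not tested. The gene lists below were not matched for level.

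**Figure D1:**
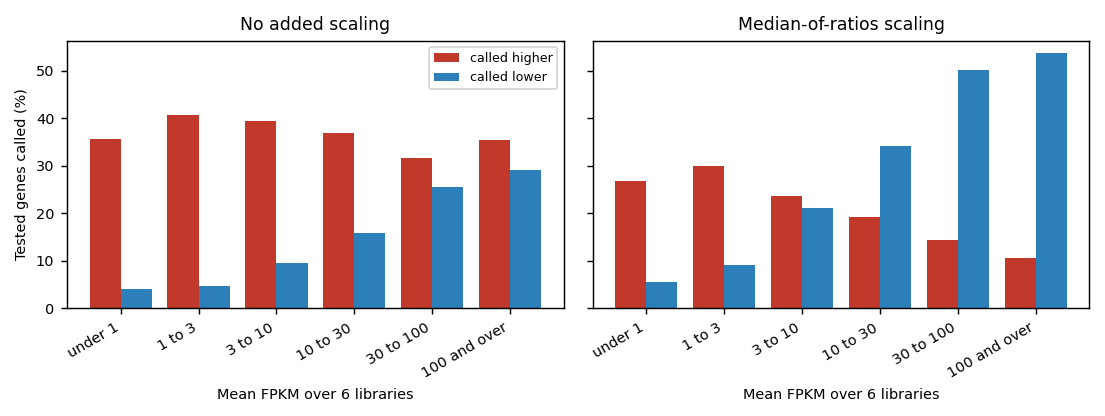
Share of tested genes called higher (red) and lower (blue) in the wild type TEAD4 line than in control, by mean FPKM over the 6 libraries, without added scaling (left) and with median-of-ratios scaling (right). Lower calls rise from 3.99% of genes under 1 FPKM to 29.1% of genes at 100 FPKM and over on the left, and from 5.47% to 53.6% on the right.

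The largest rises held a secreted growth factor, a decoy receptor, a LIM protein and genes of antigen presentation, redox control and stress. They were taken as the 20 largest log2 changes among genes called both ways, with a mean of at least 2 FPKM in the higher line and replicates that differed by less than 1.5 times or less than 0.5 FPKM. FHL1, a LIM domain protein of muscle and other cells, read 1.69 and 1.62 FPKM in control and 11.7 and 11.3 in wild type. Its control values lay near 1.6 and its wild type values near 11, with no overlap (log2 2.24, SE 0.041, adjusted p = 2.36e-07). SYTL2, a synaptotagmin-like effector of RAB27 in vesicle transport, went from 4.999 and 4.37 FPKM to 22.03 and 22.5 (log2 2.04). TMEM200A, a membrane protein gene, went from 4.35 and 4.56 to 14.3 and 13.9 FPKM (log2 1.47). RAB37, a small GTPase of secretion, was near 1 FPKM or under in control and above 3 in wild type (0.661 and 0.834 against 3.58 and 3.33 FPKM, log2 1.35). PLLP, the membrane protein plasmolipin, went from 1.19 and 0.811 to 3.58 and 4.54 FPKM (log2 1.34). LPAR1, a receptor for lysophosphatidic acid, went from 1.15 and 1.18 to 4.68 and 4.28 FPKM (log2 1.34). In each of these the replicates lay closer to each other than to the other line, which the rule that chose them favours. KRTAP3-1 (0.722 and 0.838 against 14.5 and 10.8 FPKM) had the largest rise of all genes called, with a log2 change of 2.93, and KRTAP2-3 was at 4.12 and 4.41 against 20.8 and 19.8. Both belong to a family of near-identical keratin-associated protein genes whose reads may be shared, and their values are uncertain. The other members of this set, EPGN, BAMBI, PSMB9, GLRX, COL4A5, CDKN1A, GDF15, HOXB8, HOXB9, RELB and TP53INP1, are described with their pathways.

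**Figure D2:**
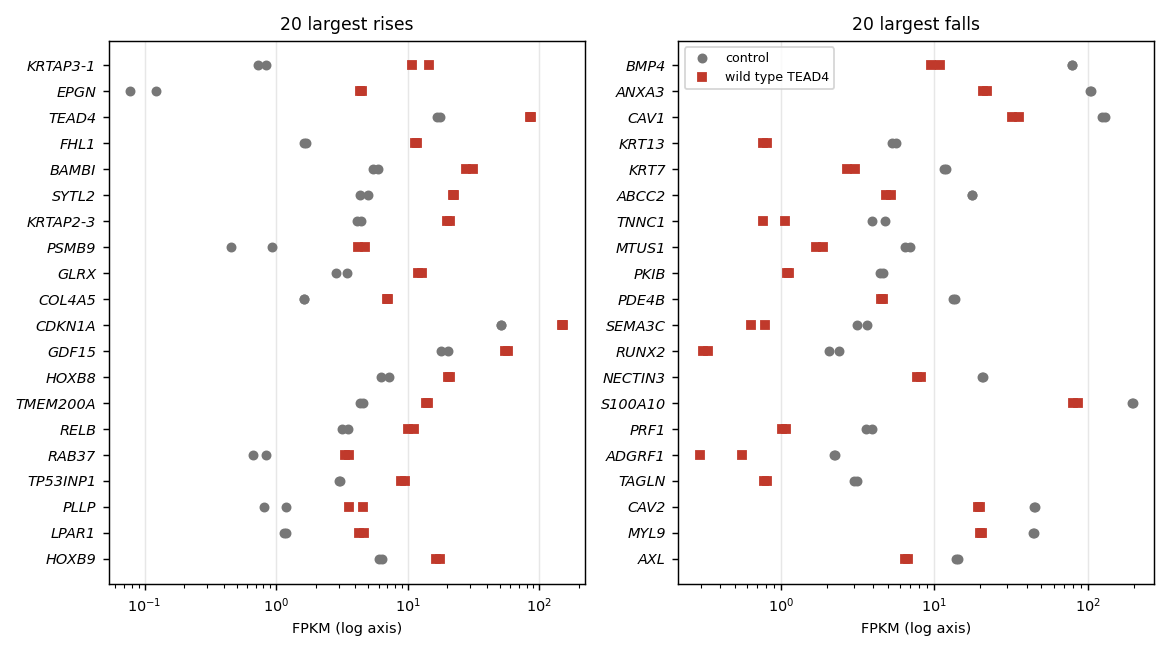
FPKM on a log axis of the 20 genes with the largest rises (left) and the 20 with the largest falls (right) in log2(FPKM + 1), with 1 point for each library of the control (grey circles) and wild type TEAD4 (red squares) lines. For every gene shown the 2 wild type points lie on 1 side of the 2 control points, which the choice of these genes largely sets. EPGN goes from 0.0781 and 0.123 FPKM to 4.33 and 4.46, and BMP4 from 79.3 and 79.6 to 10.9 and 9.59.

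The largest falls were led by a growth factor and by proteins of the cell membrane and its skeleton. BMP4, a secreted bone morphogenetic protein, held 79.3 and 79.6 FPKM in the control libraries and 10.9 and 9.59 in the wild type libraries. Its 2 control values were almost equal and both were more than 7 times the wild type ones (ratio of means 7.74, log2 -2.84, SE 0.07, adjusted p = 1.18e-06). ABCC2, an export pump for conjugated drugs and bilirubin, went from 17.6 and 17.6 FPKM to 4.83 and 5.22 (log2 -1.63). MTUS1, a microtubule-associated protein, went from 6.94 and 6.50 to 1.70 and 1.88 FPKM (log2 -1.47). A pair of genes that damp cyclic AMP signalling fell: PKIB, an inhibitor of protein kinase A, from 4.40 and 4.65 to 1.13 and 1.09 FPKM, and PDE4B, which breaks cyclic AMP down, from 13.3 and 13.6 to 4.62 and 4.53. RUNX2, a transcription factor of bone, went from 2.07 and 2.38 FPKM to 0.309 and 0.335 (log2 -1.29). NECTIN3, an adhesion molecule of cell junctions, went from 20.7 and 20.5 to 8.18 and 7.74 FPKM, and PRF1, the pore protein perforin, from 3.96 and 3.599 to 1.08 and 1.02. ADGRF1, an adhesion G protein-coupled receptor, went from 2.22 and 2.27 to 0.297 and 0.558 FPKM and its wild type replicates lay apart at that low level. None of these genes had a wild type library within the range of the control libraries, which their choice as the largest called falls largely sets. U2AF1, a splicing factor with a near-identical copy, had a larger log2 change (-2.94), but with 19.6 and 5.71 FPKM in its control libraries it did not meet the condition on replicates.

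Ligands of the EGF receptor rose together while the receptor itself fell. These ligands are made as membrane precursors, shed by proteases, and drive the ERK kinase pathway in colon epithelium. EPGN, or epigen, was close to 0 in control, at 0.0781 and 0.123 FPKM, and at 4.33 and 4.46 in wild type (log2 2.29, SE 0.082, adjusted p = 3.79e-06). EPGN thus passed the filter only through libraries of the TEAD4 lines, which favours a higher call. AREG, or amphiregulin, was abundant in both lines and went from 149 and 149.9 to 225 and 222 FPKM (log2 0.57). TGFA went from 7.89 and 8.17 FPKM to 13.2 and 13.2, HBEGF from 2.50 and 2.62 to 4.33 and 5.07, and BTC from 0.696 and 0.648 to 1.29 and 1.47. EREG, or epiregulin, had the smallest change among the ligands that rose, from 143 and 144 to 171 and 169 FPKM (log2 0.25). For all 6 ligands both wild type libraries were above both control libraries, as was the case for 54.9% of all tested genes, while 21.9% had both below. Among the receptors, ERBB3 rose (3.32 and 3.91 to 4.88 and 5.29 FPKM) and EGFR fell (5.07 and 5.31 to 4.19 and 4.37 FPKM, log2 -0.23). ERBB2 was called higher only without scaling (log2 0.15). LRIG1, which leads ERBB receptors to breakdown, rose (log2 0.35). Of the 12 tested members of this list 9 were higher and 1 lower, and 8 and 1 after scaling, with a median log2 of 0.38 against 0.093 over all genes tested (0.29 against -0.0081 after scaling). All tested genes stood at 37.6% higher and 12.2% lower, or 22.5% and 25.2% after scaling. The call of EGFR did not hold without control replicate 2 (adjusted p = 0.0648 by limma) or wild type replicate 1 (0.056).

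Several genes that ERK signalling switches on to limit itself rose with the ligands, though not all. DUSP4 and DUSP6 are phosphatases that switch ERK off. DUSP4 went from 8.73 and 8.83 FPKM to 22.99 and 22.5, and DUSP6 from 21.5 and 20.9 to 49.3 and 48.6, so that each was more than 2-fold higher in both wild type libraries. The ETS factors ETV4 (log2 0.49) and ETV5 (log2 0.48) rose, and their relative ETV1 fell (log2 -0.49). Among the Sprouty and SPRED inhibitors, SPRY2 (log2 0.28) and SPRED1 (log2 0.26) rose and SPRY4 fell (log2 -0.38). FOSL1, the AP-1 subunit FRA1, went from 49.5 and 52.2 FPKM to 37.8 and 34.99 and fell. The call of SPRY2 ended without control replicate 1 (adjusted p = 0.0553 by limma) or wild type replicate 2 (0.0599). In this list 10 of 17 tested genes were higher and 4 lower, or 7 and 4 after scaling (median log2 0.24, and 0.13 after scaling). Shares over all tested genes were 37.6% and 12.2%, or 22.5% and 25.2% after scaling.

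BMP4 was the only ligand of the BMP and TGF-beta list that fell, and the ID genes, on which BMP signals act, were higher. BMP and TGF-beta ligands act through receptor kinases and SMAD proteins, and BMPs are known to switch on the ID genes. BMP7 went from 1.88 and 1.91 FPKM to 3.46 and 3.14, BMP8B from 1.45 and 1.32 to 2.25 and 2.04, and BMP6 from 0.544 and 0.749 to 1.16 and 0.979; all 3 rose and all stayed far below the level of BMP4 in control. BMP8B has a near-identical copy, and its level is uncertain. BAMBI, a decoy receptor that lacks a kinase domain, stood at 5.44 and 5.91 FPKM in control and 27.8 and 31.2 in wild type (log2 2.19, SE 0.059, adjusted p = 1.55e-06). Its wild type libraries were both about 5 times the control ones. The target gene ID3 went from 62.7 and 59.9 FPKM to 142 and 148, ID2 from 50.02 and 46.1 to 68.3 and 71.9, and ID1 from 82.6 and 81.8 to 117 and 116.2. Thus all 3 ID genes tested were higher in both wild type libraries, as were 54.9% of all tested genes, and ID4 was too low to be tested. The receptor gene BMPR2 rose (log2 0.42) and TGFBR2 fell (log2 -0.34). SMAD1, SMAD3 and SMAD5 rose (log2 0.30, 0.48 and 0.33), SMAD7, an inhibitory SMAD, was not called (log2 -0.16), and SMAD4 was called lower only after scaling (log2 -0.21). The repressors of SMAD transcription TGIF2 (log2 0.72) and SKIL (log2 0.62) rose too. Of 8 ligands tested 5 were higher and 1 lower, and 3 and 1 after scaling (median log2 0.22, and 0.15 after scaling). Of 32 receptors, SMADs, ID genes and antagonists 18 were higher and 3 lower, and 12 and 5 after scaling (median log2 0.14, and 0.033 after scaling). Over all tested genes 37.6% were higher and 12.2% lower, or 22.5% and 25.2% after scaling. The 5 higher ligands became 3 without either control library and 2 without wild type replicate 1, and BMP6 was among those lost (adjusted p = 0.0834 by limma without control replicate 1 and 0.0762 without wild type replicate 1).

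Components and feedback inhibitors of NF-kB signalling rose, and with them 10 of 12 tested genes of a list of cytokines, chemokines and adhesion molecules. NF-kB dimers are held in the cytoplasm by I-kappa-B proteins; when freed they bind kappa B elements and switch on chemokines, survival genes and their own inhibitors. RELB, a subunit of the alternative NF-kB dimer, went from 3.50 and 3.15 FPKM to 11.3 and 10.1 (log2 1.43, SE 0.11, adjusted p = 8.64e-05). Its partner NFKB2 went from 7.61 and 7.28 to 17.3 and 17.4 FPKM, so both subunits of the alternative dimer were more than 2-fold higher in each wild type library. NFKB1 rose by less (log2 0.28), and RELA was at 26.8 and 26.8 FPKM against 27.3 and 26.3, which was called lower only after scaling (log2 -0.12). BIRC3, an inhibitor of apoptosis that is also a target, read 0.213 and 0.200 FPKM in control and 1.81 and 1.78 in wild type. TNFAIP3, the feedback inhibitor A20, read 0.368 and 0.425 against 2.02 and 2.02 FPKM. Both thus went from under 0.5 FPKM to near 2 in each wild type library. With both control libraries under 0.5 FPKM, they passed the filter only through libraries of the TEAD4 lines, which favours a higher call. The I-kappa-B genes NFKBIA (log2 0.61) and NFKBIZ (log2 0.74) rose, as did the inhibitors TNIP1 (log2 0.66) and CYLD (log2 0.53). The kinase IKBKE rose (log2 0.70) and TRAF2 fell (log2 -0.24). In this list 16 of 26 tested genes were higher and 1 lower, or 13 and 3 after scaling (median log2 0.25, and 0.15 after scaling). The shares over all tested genes were 37.6% and 12.2%, or 22.5% and 25.2% after scaling.

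LTB, the membrane cytokine lymphotoxin beta, was listed at 0 FPKM in both control libraries and at 1.15 and 1.87 in the wild type libraries. CXCL1, a chemokine for neutrophils, read 0.0471 and 0.181 FPKM in control and 1.87 and 1.61 in wild type (log2 1.30, adjusted p = 7.73e-05). Its neighbours CXCL2 (0.434 and 0.0922 against 0.931 and 0.733 FPKM) and CXCL3 (0.1005 and 0.335 against 0.804 and 0.882) rose too, though these 3 genes share similar sequence and part of their reads may be shared. The call of CXCL2 ended without control replicate 2 (adjusted p = 0.0863 by limma) or wild type replicate 1 (0.0799). CXCL8 did not reach 0.5 FPKM in 2 libraries and was not tested (0.0241 and 0.0678 against 0.350 and 0.404 FPKM). Among genes at higher levels, CXCL16 went from 16.02 and 16.9 FPKM to 31.7 and 33.04, IL18 from 15.8 and 15.8 to 28.3 and 30.7, and the adhesion receptor ICAM1 from 3.02 and 3.18 to 6.86 and 6.97. All 12 tested members were higher and 0 lower by limma at an adjusted p under 0.05, and 0 were lower at an unadjusted p under 0.05. After scaling 10 were higher and 0 lower, and CSF1 and TNFSF9 were not called (median log2 0.73, and 0.65 after scaling). Under a filter on a mean of at least 1 FPKM only 7 of them were left to be called. Another 27 of the 47 members were above 0 but did not pass the filter. LTB, CXCL1, CXCL2 and CXCL3 were under 0.5 FPKM in both control libraries, so they passed only through libraries of the TEAD4 lines. The filter favours a higher call for such genes, so 12 of 12 is no support in itself. Of all tested genes, 37.6% were higher and 12.2% lower, or 22.5% and 25.2% after scaling.

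The stretches below show where the letters of the kappa B consensus, the known binding element of NF-kB, lie before the start of genes of these lists that rose. They were cut from RefSeq promoter windows of 300 bases (250 before and 50 after the start, GRCh38.p14), each stretch being 60 bases on the strand of the gene, 5′ to 3′, with matches in capitals. Only the first window listed for a gene name was used, and other starts were not searched. The 2 stretches of CXCL1 and CXCL2 hold the same element of 11 bases, and TNFAIP3 holds 2 elements side by side.
CXCL1 chr4:73869289-73869348 (+): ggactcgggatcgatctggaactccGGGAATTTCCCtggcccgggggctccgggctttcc
CXCL2 chr4:74099239-74099298 (-): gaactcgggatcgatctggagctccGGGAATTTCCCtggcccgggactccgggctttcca
BIRC3 chr11:102317260-102317319 (+): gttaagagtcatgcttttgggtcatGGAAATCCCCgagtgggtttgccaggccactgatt
TNFAIP3 chr6:137867167-137867226 (+): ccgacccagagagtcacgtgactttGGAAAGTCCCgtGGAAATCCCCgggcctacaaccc
NFKBIA chr14:35404796-35404855 (-): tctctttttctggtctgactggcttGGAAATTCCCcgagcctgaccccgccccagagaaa
The search covered both strands, and the motif was chosen after the values were seen. Of 9377 tested genes with a window (81.9% of those tested), 614 held a match, or 6.55%. Of the 26 genes of the NF-kB list 22 had a window and 8 of these held a match (36.4%): BIRC3, TNFAIP3, NFKBIA, NFKBIZ, NFKB1, TRAF3, REL and BCL3. The first 6 of these rose, REL was called higher only without scaling, and BCL3 was not called. For comparison, 1 of 22 windows of a list of arrest and repair genes held one, and 4 of 44 of the DNA replication list. The NF-kB list holds genes that NF-kB is known to switch on, so its share would be high whatever these lines did. For the cytokine list the check is void, since only 66.7% of its genes had a window. A match is a run of letters and not a bound site.

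Genes of antigen presentation by MHC class I rose at nearly every step, from peptide cutting to the surface molecule. Class I molecules display peptides that the immunoproteasome cuts, TAP transporters carry into the endoplasmic reticulum, and chaperones load. PSMB9, a catalytic subunit of the immunoproteasome, read 0.938 and 0.450 FPKM in control and 4.20 and 4.75 in wild type (log2 1.71, SE 0.15, adjusted p = 0.000159). Its control libraries lay apart from each other, and both were more than 4 times lower than either wild type library. PSMB10 rose by less (log2 0.25), and the activator subunits PSME1 (log2 0.50) and PSME2 (log2 0.62) rose. The transporter genes TAP1 (9.75 and 9.68 to 19.6 and 19.8 FPKM) and TAP2 (12.8 and 14.2 to 19.4 and 19.6 FPKM) rose, as did the loading factor TAPBP (log2 0.74) and the trimming enzyme ERAP1 (log2 0.48). Of the class I heavy chains, HLA-B went from 45.3 and 49.4 FPKM to 90.3 and 91.9, the largest log2 change among HLA-B, HLA-C, HLA-E and HLA-F (0.93, 0.31, 0.34 and 0.63). These genes are close copies and highly variable, so their levels are uncertain. Their shared light chain B2M is a single gene and went from 114 and 114 FPKM to 185 and 184. NLRC5, the class I transactivator, went from 0.558 and 0.682 FPKM to 2.26 and 1.91. Of the general chaperones of the reticulum, CALR was called lower only after scaling (log2 -0.12) and CANX fell (log2 -0.15). In this list 16 of 19 tested genes were higher and 1 lower, or 15 and 3 after scaling, with a median log2 of 0.50 (0.39 after scaling). All tested genes stood at 37.6% higher and 12.2% lower, or 22.5% and 25.2% after scaling. Only 78.9% of the class I genes had a promoter window, so a share of this list with a kappa B match is void. The window of B2M, picked after its value was seen, holds a kappa B match (in capitals below), as did 6.55% of all windows. The same stretch holds 2 matches of the interferon response element, described with the interferon genes and left in lower case here.
B2M chr15:44711367-44711426 (+): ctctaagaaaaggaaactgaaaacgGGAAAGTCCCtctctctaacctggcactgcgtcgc

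Some class II genes beside PSMB9 and TAP1 rose as well. They belong to no list and were named after their values were seen. HLA-DRA went from 0.528 and 0.611 FPKM to 2.26 and 2.31 and HLA-DMA from 2.22 and 2.82 to 6.81 and 5.94. Along chromosome 6, the tested genes HLA-DRA, HLA-DRB1, TAP2, PSMB9, TAP1, HLA-DMB and HLA-DMA are consecutive (chr6:32439842-32969094, GRCh38, GENCODE release 29), and all 7 rose, by log2 0.50 to 1.71. TAP1 and PSMB9 start close to each other on opposite strands, and whether the counting used strand is not stated in any source used here.

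Interferon-stimulated genes rose in the main at low levels, while the most abundant one, IFITM3, fell. IFIT1, which binds viral RNA, went from 0.353 and 0.445 FPKM to 1.55 and 1.25, and IFI6 from 4.35 and 3.92 to 7.26 and 8.01. The RNA sensors DDX58 (RIG-I, log2 0.62) and IFIH1 (MDA5, log2 0.60) rose, and so did the signalling factor STAT2 (log2 0.62). STAT2 stood at 2.33 and 2.14 FPKM in control and 4.16 and 3.77 in wild type. TRIM22 went from 0.0979 and 0.0930 FPKM to 0.625 and 0.668. Against these, ISG15 was at 112 and 108 FPKM in control and 120.2 and 125 in wild type, a call that did not hold after scaling (log2 0.15, and 0.033 after it). IFITM3 went from 308 and 324 to 255 and 256 FPKM, and IFITM2 fell too (log2 -0.12). These 2 genes are close copies and their values are uncertain. IRF9, a partner of STAT2, was not called (log2 -0.085). Over all tested genes 37.6% were higher and 12.2% lower, or 22.5% and 25.2% after scaling. In this list 23 of 30 tested genes were higher and 2 lower, or 20 and 2 after scaling (median log2 0.48 and 0.38). IFIT1 and TRIM22 were under 0.5 FPKM in both control libraries and passed the filter only through libraries of the TEAD4 lines. The filter favours a higher call for such genes. The 2 lower genes became 1 without control replicate 1, where IFITM2 had an adjusted p of 0.0753 by limma. The stretches below hold the letters of the interferon response element, 2 TTTC blocks set 2 bases apart and searched on both strands (in capitals), in the windows of TAP1 and IFIT1, both of which rose, each with 2 matches that overlap or lie side by side. The motif was chosen after the values were seen, and 2.58% of all 9377 windows held it. The window of TAP1 also holds 2 kappa B matches, which are not shown.
TAP1 chr6:32853804-32853863 (-): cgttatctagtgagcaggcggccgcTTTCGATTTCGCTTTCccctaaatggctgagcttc
IFIT1 chr10:89392482-89392541 (+): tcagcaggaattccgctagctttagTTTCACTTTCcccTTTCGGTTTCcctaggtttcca
For the interferon and class I lists the check is void, since only 76.7% and 78.9% of their genes had a window.

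Genes of the stress response that halt the cell cycle and repair DNA rose in the main. CDKN1A, the cyclin-dependent kinase inhibitor p21, read 51.04 and 50.8 FPKM in control and 149 and 152 in wild type. Its replicates differed by under 3 FPKM in each line, against a difference of about 100 between lines (log2 1.55, SE 0.026, adjusted p = 2.11e-07). GDF15, a secreted stress cytokine, went from 20.2 and 17.98 FPKM to 54.7 and 57.8, and TP53INP1, a stress-induced nuclear protein, from 3.04 and 3.004 to 9.46 and 8.93. DRAM1, a lysosomal protein of autophagy, went from 5.96 and 5.47 to 12.3 and 12.8 FPKM. RRM2B, which supplies nucleotides for repair, DDB2 and XPC, which sense DNA damage, and POLH, a polymerase that copies damaged DNA, rose by log2 0.78, 0.61, 0.34 and 0.38. MDM2, a ubiquitin ligase, went from 27.2 and 29.03 FPKM to 40.5 and 41.98, and the phosphatase PPM1D from 13.2 and 14.4 to 19.2 and 17.9, so these feedback inhibitors of the response were higher as well. PLK2 was the member that fell (24.8 and 26.6 to 17.3 and 16.2 FPKM). In this list 24 of 26 tested genes were higher and 1 lower, or 21 and 1 after scaling. The list's median log2 was 0.60, and 0.48 after scaling, against 0.093 and -0.0081 over all genes. Shares over all tested genes were 37.6% higher and 12.2% lower, or 22.5% and 25.2% after scaling.

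In the apoptosis list the rises were found in receptors, BH3 proteins and some caspases, with few falls. The death receptor FAS went from 1.61 and 1.68 FPKM to 4.40 and 4.53, and TP53I3, an oxidoreductase of the stress response, from 2.58 and 2.39 to 6.40 and 5.98. The decoy receptor TNFRSF10C went from 2.30 and 1.89 to 4.28 and 4.92 FPKM. In each, both wild type libraries were above both control libraries, as in 54.9% of all tested genes. The BH3 proteins BBC3 (PUMA, 5.89 and 5.54 to 10.6 and 10.6 FPKM), BIK (log2 0.56) and HRK (log2 0.47) rose, and PMAIP1 (NOXA) was not called (log2 0.0023). The effector BAX rose (log2 0.45). The caspases CASP4 and CASP9 rose (log2 0.53 and 0.33), CASP2 fell (log2 -0.29), and CASP8 was not called (log2 0.15). The caspase inhibitor XIAP rose (log2 0.44). All tested genes stood at 37.6% higher and 12.2% lower, or 22.5% and 25.2% after scaling. In this list 21 of 38 tested genes were higher and 2 lower, or 14 and 5 after scaling (median log2 0.18, and 0.060 after scaling). The 2 lower genes became 1 without control replicate 2 or without either wild type library.

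Genes of DNA replication fell in the main, by small amounts each. The MCM2 to MCM7 helicase opens DNA at origins, which ORC, CDC6 and CDT1 license. MCM5 went from 63.4 and 65.1 FPKM to 43.5 and 41.8, and MCM2 from 69.3 and 67.5 to 52.7 and 50.1. All 6 helicase genes fell, by log2 -0.18 (MCM7) to -0.58 (MCM5). Among the licensing factors, ORC1 (log2 -0.42), CDC6 (log2 -0.35) and CDT1 (log2 -0.26) fell. UHRF1, which brings the methyltransferase DNMT1 to new DNA, went from 47.1 and 49.6 to 32.8 and 31.8 FPKM, and DNMT1 fell too (log2 -0.20). The polymerase subunits POLE (log2 -0.45), POLD3 (log2 -0.36) and POLA1 (log2 -0.26) fell, and the reductase subunit RRM2 went from 244 and 251 to 188 and 185 FPKM. PCNA, the sliding clamp of replication and repair, fell by 0.14 on the log2 scale. ORC4 was the member that rose (log2 0.28). Over all tested genes 12.2% were lower and 37.6% higher, or 25.2% and 22.5% after scaling. Among genes of 30 to 100 FPKM, where the control values of MCM5, MCM2 and UHRF1 lie, 25.4% were lower, or 50.1% after scaling. Of 51 tested members of the replication list 31 were lower and 5 higher, and 42 lower and 1 higher after scaling, with a median log2 of -0.15 (-0.26 after scaling). The 5 higher genes became 2 or 3 when either control library was left out, or wild type replicate 2.

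Among regulators of the cycle, E2F1, E2F2, E2F8 and the cyclins CCNE2 and CCND1 fell, and the inhibitors CDKN1A and CDKN1C rose. E2F8 went from 11.7 and 11.2 FPKM to 6.95 and 6.56, and E2F2 fell too (log2 -0.33). E2F1 fell (log2 -0.23), a call that ended without control replicate 2 (adjusted p = 0.0797 by limma) or wild type replicate 2 (0.0769). E2F5 rose (log2 0.62). The S phase cyclin CCNE2 went from 9.86 and 9.94 to 6.52 and 7.02 FPKM. CCND1, the cyclin of growth signals, fell from 189.8 and 197 FPKM to 166 and 165. Of the pocket proteins, which restrain E2F factors, RBL2 rose (2.74 and 2.73 to 4.81 and 4.71 FPKM), RBL1 fell (log2 -0.22) and RB1 was not called (log2 0.090). The inhibitor CDKN2A fell (log2 -0.33), and CDKN1C rose (log2 0.69). CDK6 (log2 0.45) and MYC (58.5 and 59.6 to 80.7 and 80.2 FPKM) rose, while CDK4 fell (log2 -0.16). In this list 8 of 34 tested genes were higher and 13 lower, or 6 and 20 after scaling (median log2 -0.055, and -0.17 after scaling). In the mitosis list 17 of 42 genes were lower and 4 higher, or 33 and 2 after scaling (median log2 -0.086, and -0.20 after scaling). The largest falls there were those of the proliferation marker MKI67 (53.5 and 53.1 to 41.9 and 42.01 FPKM), the anaphase activator CDC20 (log2 -0.29) and UBE2S (log2 -0.28), and PTTG1 (securin) and CDC25C rose. CCNB1 and CDK1, the engine of mitosis, were each called one way only. CCNB1 stood at 124 and 129 against 138 and 139 FPKM and was called higher only without scaling (log2 0.13), and CDK1 stood at 48.8 and 47.4 against 47.8 and 47.5 and was called lower only after scaling (log2 -0.13). Over all tested genes 12.2% were lower and 37.6% higher, or 25.2% and 22.5% after scaling. Among genes of 30 to 100 FPKM, where the control values of MKI67 and CDK1 lie, 25.4% were lower, or 50.1% after scaling. The 17 lower mitosis genes became 10 or 11 when either control library was left out, or wild type replicate 2, and the 4 higher ones became 2 when either control library was left out, or wild type replicate 1.

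Genes of caveola proteins fell, the caveolins most. Caveolae are small pits of the cell membrane built from caveolins and cavins, and CAV1 and CAV2 lie side by side on chromosome 7. CAV1 went from 125 and 129.9 FPKM to 35.6 and 32.3 (log2 -1.88, SE 0.047, adjusted p = 1.18e-06). CAV2, its partner, went from 44.8 and 45.5 to 19.95 and 19.2 FPKM (log2 -1.17). For each gene both wild type libraries were more than 2-fold below both control libraries. The cavins CAVIN3 (log2 -0.72) and CAVIN1 (log2 -0.18) and the neck protein EHD2 (log2 -0.23) fell, and PACSIN2 and PACSIN3 were called higher without scaling only. Shares over all tested genes were 12.2% lower and 37.6% higher, or 25.2% and 22.5% after scaling. In this list 5 of 7 tested genes were lower and 2 higher, or 5 and 0 after scaling (median log2 -0.23, and -0.35 after scaling). The 2 higher ones became 1 when any 1 of the 4 libraries was left out.

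Annexins and S100 proteins, calcium-dependent partners at membranes, fell in part. ANXA3 went from 105.2 and 104 FPKM to 22.1 and 20.7, the largest fall after BMP4 among genes that met the condition on replicates (log2 -2.23, adjusted p = 2.36e-07). S100A10 went from 194 and 197 to 86.5 and 80.5 FPKM and its binding partner ANXA2 from 164 and 161 to 126 and 128. ANXA1 (154 and 154 to 90.98 and 89.4 FPKM) and S100A2 (log2 -0.78) fell, and ANXA6 (log2 0.72), S100A3 (log2 0.82) and S100A1 (log2 0.69) rose. In this list 10 of 20 tested genes were lower and 6 higher, or 11 and 3 after scaling (median log2 -0.18, and -0.28 after scaling). All tested genes stood at 12.2% lower and 37.6% higher, or 25.2% and 22.5% after scaling.

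Keratins fell whether abundant or rare. KRT8 and KRT18 form the intermediate filaments of simple epithelia, and KRT8 went from 1307 and 1288 FPKM to 783 and 758 while KRT18 went from 700.2 and 681 to 464 and 449. KRT8 was above KRT18 in all 4 libraries. KRT7 (11.7 and 12.02 to 3.05 and 2.72 FPKM), KRT13 (5.31 and 5.61 to 0.764 and 0.807 FPKM) and KRT80 (log2 -0.96) fell by more, and KRT19 by less (log2 -0.21). KRT6A fell (log2 -0.28), a call that ended without control replicate 2 (adjusted p = 0.0826 by limma) or wild type replicate 1 (0.0588). KRT23 was called higher without scaling only. Over all tested genes 12.2% were lower and 37.6% higher, or 25.2% and 22.5% after scaling. In this list 8 of 13 tested genes were lower and 1 higher, or 8 and 0 after scaling (median log2 -0.28, and -0.35 after scaling). The 1 higher member was lost when replicate 1 of control or of wild type was left out, leaving 0.

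Actins and proteins that bundle or pull on them were lower, and these include the genes with the largest falls in FPKM. ACTG1 went from 2172 and 2194 FPKM to 1438 and 1393 and ACTB from 1480.2 and 1478 to 946 and 909, and both wild type libraries lay well below both controls in each. FLNA, which crosslinks filaments, went from 104 and 104 to 60.6 and 58.5 FPKM, ACTN4 from 101 and 99.7 to 70.9 and 68.1, and TAGLN2 from 80.5 and 82.1 to 44.8 and 42.8. The smooth muscle type genes MYL9 (45.03 and 44.3 to 19.8 and 20.6 FPKM) and TAGLN (3.005 and 3.14 to 0.818 and 0.779 FPKM) fell, as did the troponin TNNC1 (3.94 and 4.81 to 0.767 and 1.07 FPKM) and the tropomyosins TPM2 (log2 -0.41) and TPM4 (log2 -0.41). ACTA2 went the other way (0.692 and 0.465 to 2.32 and 1.98 FPKM), and so did FHL1, MYH14 (log2 0.78) and PDLIM1 (log2 0.40). Actin genes are close copies of each other. Shares over all tested genes were 12.2% lower and 37.6% higher, or 25.2% and 22.5% after scaling. In this list 18 of 36 tested genes were lower and 9 higher, or 21 and 4 after scaling (median log2 -0.094, and -0.21 after scaling). The 9 higher became 4 or 5 when either control library was left out, or wild type replicate 1. Other abundant genes with large falls in FPKM were TUBA1B (925 and 945 to 795 and 749.8), TUBB (612 and 616 to 499 and 496), HSP90AB1 (1052 and 1034 to 871 and 858) and GAPDH (1935 and 1896 to 1738 and 1747). MIF was among them too (1002 and 972 to 810.5 and 904 FPKM, log2 -0.21), but its call ended without control replicate 1 (adjusted p = 0.166 by limma), without control replicate 2 (0.104) and without wild type replicate 1 (0.204).

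Matrix genes changed in both directions, with a collagen IV pair among those that rose. COL4A5 and COL4A6, chains of basement membrane collagen, lie head to head on the X chromosome. COL4A5 went from 1.64 and 1.63 FPKM to 7.07 and 6.98 (log2 1.61, adjusted p = 1.62e-06), and COL4A6 from 0.291 and 0.229 to 1.52 and 1.37. COL4A6 thus passed the filter only through libraries of the TEAD4 lines, which favours a higher call. COL12A1 (12.8 and 12.9 to 22.5 and 22.1 FPKM) and the laminin chains LAMB3 (log2 0.47) and LAMC3 (log2 0.50) rose. TINAGL1 (11.3 and 11.3 to 6.19 and 5.88 FPKM), FRAS1 (log2 -0.74), COL17A1 (log2 -0.49) and LAMA5 (log2 -0.40) fell. ITGB4, the integrin of hemidesmosomes, went from 14.5 and 13.97 FPKM to 8.69 and 8.71, while its partner ITGA6 rose (log2 0.24). Of 25 tested matrix genes 12 were higher and 8 lower, and 11 and 8 after scaling (median log2 0.084, and 0.039 after scaling). Of 10 integrins 4 were higher and 1 lower, and 3 and 2 after scaling (median log2 0.073, and -0.023 after scaling). All tested genes stood at 37.6% higher and 12.2% lower, or 22.5% and 25.2% after scaling, and the integrins were near these shares.

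Among proteases and inhibitors, SERPINB5 (maspin) went from 8.37 and 8.34 FPKM to 14.8 and 14.7. The membrane metalloproteases MMP14 (log2 0.58) and MMP15 (log2 0.53) rose with the inhibitors TIMP2 (log2 0.53) and TIMP3 (log2 0.58). The sheddases ADAM19 (3.51 and 3.45 to 1.62 and 1.56 FPKM) and ADAM9 (log2 -0.42) fell, as did the kallikreins KLK6 (log2 -0.69) and KLK10 (log2 -0.76). In this list 16 of 32 tested genes were higher and 8 lower, or 13 and 8 after scaling (median log2 0.19, and 0.078 after scaling). In the list of cadherins and tight junctions, TJP3 (ZO-3) went from 1.86 and 1.65 FPKM to 4.61 and 4.79. The claudins CLDN3 (log2 0.43), CLDN4 (log2 0.39) and CLDN12 (log2 0.32) and occludin, OCLN (log2 0.42), rose, CLDN7 fell (log2 -0.17), and the desmosomal cadherin DSC2 fell (6.83 and 6.59 to 4.18 and 4.71 FPKM). The call of CLDN7 ended without control replicate 1 (adjusted p = 0.0523 by limma). CDH1, or E-cadherin, stood at 11.6 and 11.3 against 10.2 and 10.97 FPKM and was called lower only after scaling. In this list 15 of 32 tested genes were higher and 3 lower, or 9 and 7 after scaling (median log2 0.12, and 0.0030 after scaling). Over all tested genes 37.6% were higher and 12.2% lower, or 22.5% and 25.2% after scaling. The cadherin and tight junction list was thus near the shares of all genes.

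HOX genes, which specify position along the body axis, rose mainly in the HOXB cluster of chromosome 17. HOXB8 went from 7.26 and 6.27 FPKM to 20.9 and 20.2 (log2 1.48, SE 0.063, adjusted p = 7.06e-06), and HOXB9 from 6.02 and 6.42 to 17.7 and 16.5. HOXB7, the most abundant of the cluster, went from 28.9 and 25.03 to 44.1 and 43.8 FPKM. In cluster order, HOXB4 rose by log2 1.05, HOXB5 by 0.91, HOXB6 by 0.79 and HOXB13 by 0.71. The tested genes from HOXB4 to HOXB13 are 7 consecutive ones along the chromosome (chr17:48575513-48729178, GRCh38, GENCODE release 29). In all 7 both wild type libraries were above both controls, as in 54.9% of all tested genes. This run was found by its rises, so that separation is no added support. HOXB3 rose too, at low levels (0.745 and 0.742 to 1.21 and 1.37 FPKM), and HOXB2 was called higher only without scaling. In the HOXA cluster, HOXA5 (log2 0.49) and HOXA13 (log2 0.46) rose, and HOXA9, the most abundant, stood at 37.3 and 36.1 against 40.96 and 40.8 FPKM and was not called after scaling. HOXC13 (log2 0.53) rose and HOXC9 fell (4.48 and 3.93 to 2.68 and 3.13 FPKM). The call of HOXA13 ended without control replicate 1 (adjusted p = 0.0881 by limma) or wild type replicate 2 (0.0864). All tested genes stood at 37.6% higher and 12.2% lower, or 22.5% and 25.2% after scaling. In this list 14 of 25 tested genes were higher and 1 lower, or 12 and 1 after scaling (median log2 0.31 and 0.26). Transcripts on the opposite strand lie within this cluster, and without knowledge of strand their reads cannot be told apart from those of the HOX genes.

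**Figure D3:**
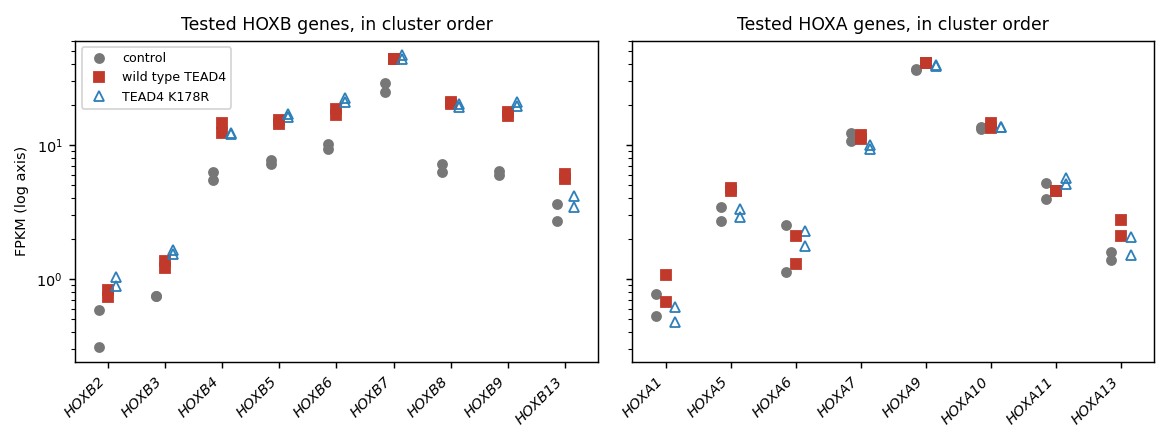
FPKM on a log axis of the tested HOXB genes (left) and HOXA genes (right) in each library of the control (grey circles), wild type TEAD4 (red squares) and TEAD4 K178R (open blue triangles) lines. From HOXB4 to HOXB13 both wild type points lie above both control points, whereas in the HOXA cluster most genes lie near their control points and HOXA5 and HOXA13 above them.

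Runs of neighbouring genes were looked for after the values were seen. Counting tested genes in their order on the chromosome, 11 runs of at least 3 consecutive genes each rose by a log2 of at least 0.5, the HOXB run and the MHC run being the longest at 7. Others held CXCL1, CXCL3 and CXCL2 (chr4:73869393-74099293), AREG, BTC and PARM1 (chr4:74445134-75050115), PARP9, DTX3L and PARP14 (chr3:122527924-122730840), and RHOBTB3, GLRX and ELL2 (chr5:95713522-95962071). GLRX, a glutaredoxin that reduces protein disulfides, was the strongest of these (2.85 and 3.44 FPKM in control, 11.9 and 12.9 in wild type), and RHOBTB3 beside it went from 14.9 and 14.5 to 29.4 and 28.96 FPKM. Whole chromosomes differed little. Over 11324 tested genes with a position, the median log2 change of a chromosome ran from 0.031 (chromosome 21) to 0.12 (chromosome 6), and from -0.061 to 0.020 after scaling.

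The letters GGAATG, the core of the motif that TEAD proteins bind, were searched on both strands of the same windows. They were found in 991 of 9377 windows, or 10.6%, and in 10.1% of the 1154 windows of genes that fell. Only 79.3% of the genes that rose had a window, under the minimum set for such a share, so that check is void. The stretches below show the core (in capitals, as read on the strand of the gene) before the starts used for GLRX and GDF15, which rose, and just after the start used for KRT8, which fell. Those of GDF15 and KRT8 lie inside the GENCODE spans of these genes (chr19:18374731-18389176 and chr12:52897187-52949954), and other starts were not searched. These 3 genes were chosen after their values were seen.
GLRX chr5:95822837-95822896 (-): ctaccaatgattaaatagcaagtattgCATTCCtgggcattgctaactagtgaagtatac
GDF15 chr19:18385908-18385967 (+): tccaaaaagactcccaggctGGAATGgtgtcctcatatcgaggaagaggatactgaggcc
KRT8 chr12:52926420-52926479 (-): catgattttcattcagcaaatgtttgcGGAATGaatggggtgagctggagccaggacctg
In GLRX the match is on the opposite strand and reads CATTCC. TEAD sites are known to lie mostly in enhancers far from gene starts, which these windows do not cover.

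Genes of intestinal differentiation rose more often than they fell, at low levels. CA2, a carbonic anhydrase of colonocytes, went from 15.8 and 15.1 FPKM to 29.2 and 29.04. The transcription factors GATA6 (2.06 and 2.04 to 3.43 and 3.76 FPKM), SOX9 (log2 0.43), CDX2 (log2 0.26) and HNF4G (log2 0.36) rose, and KLF5 fell (log2 -0.19). The brush border peptidase DPP4 fell (2.01 and 1.95 to 1.05 and 0.619 FPKM). The mucin genes MUC13 and MUC20 rose and remained under 1 FPKM in every library. Over all tested genes 37.6% were higher and 12.2% lower, or 22.5% and 25.2% after scaling. In this list 10 of 16 tested genes were higher and 3 lower, or 10 and 4 after scaling (median log2 0.28, and 0.22 after scaling). The 3 lower became 1 without control replicate 1, where KLF5 had an adjusted p of 0.0567 by limma, and under a filter on a mean of at least 1 FPKM 4 were higher.

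Signalling receptors and ligands beyond these pathways moved in both directions. Counts of these lists stand against 37.6% higher and 12.2% lower over all tested genes, or 22.5% and 25.2% after scaling. In the Wnt list, the ligand WNT7B went from 1.05 and 1.11 FPKM to 3.55 and 3.61 and WNT16 from 17.03 and 15.5 to 9.36 and 9.42, a rise and a fall. DKK1, a secreted Wnt inhibitor and the most abundant member, went from 274 and 285 to 368 and 359 FPKM, and the feedback genes NKD2 (log2 0.58) and RNF43 (log2 0.41) rose. AXIN2, the common readout of beta-catenin, was not called (log2 0.082). Of 28 members 15 were higher and 2 lower, and 9 and 3 after scaling (median log2 0.19, and 0.11 after scaling), and the 15 became 9 without wild type replicate 2. In the Notch list, JAG1 (4.47 and 4.44 to 7.79 and 7.44 FPKM), NOTCH3 (2.66 and 2.72 to 4.86 and 4.92 FPKM) and HES2 (2.002 and 2.27 to 6.10 and 6.45 FPKM) rose, and HES1 was not called (log2 0.19). Of 19 members 10 were higher and 1 lower, and 9 and 4 after scaling (median log2 0.19, and 0.082 after scaling); the 1 lower, DTX2, became 0 when either control library was left out, or wild type replicate 2. Of 14 ephrins and Eph receptors 7 were higher and 1 lower, and 7 and 2 after scaling (median log2 0.22, and 0.15 after scaling). EPHB2 (log2 0.56) and EPHB3 (log2 0.51), which order cells in the crypt, rose, and their ligand EFNB2 fell (log2 -0.43). Among semaphorins, SEMA6B (13.9 and 13.4 to 20.96 and 22.04 FPKM) and SEMA3F (log2 0.61) rose and SEMA3C fell (3.64 and 3.13 to 0.639 and 0.785 FPKM), and 10 of 19 genes of the semaphorin list were higher and 3 lower, and 7 and 6 after scaling (median log2 0.15, and 0.078 after scaling). Of 19 further receptor tyrosine kinases 9 were higher and 3 lower, and 7 and 3 after scaling (median log2 0.18, and 0.064 after scaling). AXL fell most among them (14.4 and 13.9 to 6.77 and 6.44 FPKM), and MET fell slightly (log2 -0.15).

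Genes of lipid synthesis fell in part, and redox and transport genes changed in both directions. Over all tested genes 37.6% were higher and 12.2% lower, or 22.5% and 25.2% after scaling, and the redox list was near these shares. In cholesterol and fatty acid synthesis, INSIG1 (14.5 and 13.8 to 8.66 and 9.61 FPKM), SCD (142 and 143 to 108 and 106 FPKM), ACACA (log2 -0.38), FASN (log2 -0.31) and the controlling factor SREBF1 (log2 -0.29) fell, and TM7SF2 rose (log2 0.57). Of 32 members 13 were lower and 3 higher, and 22 and 1 after scaling (median log2 -0.11, and -0.23 after scaling), and the 3 became 1 without wild type replicate 2. In the redox list GLRX and the peroxiredoxins PRDX2 (log2 0.33) and PRDX4 (log2 0.32) rose. The ferritin chains parted, with FTL going from 776 and 772 FPKM to 945 and 924 and FTH1 from 865 and 843 to 690.5 and 674. Of 41 members 18 were higher and 7 lower, and 11 and 13 after scaling (median log2 0.10, and -0.018 after scaling), and the 7 became 2 without control replicate 1 and 4 without control replicate 2 or wild type replicate 2. Among ABC transporters, ABCB6 (2.95 and 3.16 to 7.68 and 6.53 FPKM) and ABCA3 (log2 0.74) rose and ABCC3 (log2 -0.39) fell with ABCC2; 11 of 24 were higher and 5 lower, and 11 and 7 after scaling (median log2 0.17, and 0.078 after scaling). MT2A, a metal-binding metallothionein, had the largest rise in FPKM of all genes (601 and 619 to 1105 and 987), though it has close copies and its level is uncertain. The chaperone HSPA8 (842 and 823 to 1048 and 1022 FPKM) and the respiratory chain subunit COX6A1 (326 and 334 to 426 and 436 FPKM) were also among the 10 largest, as were the ribosomal protein genes RPL37A, RPS28, RPL13A and RPL3.

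For the ribosome and the proteasome the counts rested on scaling. Shares over all tested genes were 37.6% higher and 12.2% lower, or 22.5% and 25.2% after scaling. Of 79 tested cytosolic ribosomal protein genes 50 were higher and 0 lower on the deposited values (0 by limma at an adjusted p under 0.05, and 0 at an unadjusted p under 0.05). Scaling left 8 higher and made 12 lower. Their median log2 change was 0.12, or -0.0072 after scaling, and the largest was 0.30 (RPS28). These are small proteins encoded by abundant RNA, and their genes have many near-identical pseudogenes, so their levels are uncertain. Of 31 proteasome genes 23 were higher and 1 lower, and 10 and 4 after scaling (median log2 0.15, and 0.024 after scaling), led by PSMB6 (log2 0.41) and PSMB3 (log2 0.36). The 1 lower gene, PSMA7, became 0 when either control library was left out, or wild type replicate 2.

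**Figure D4:**
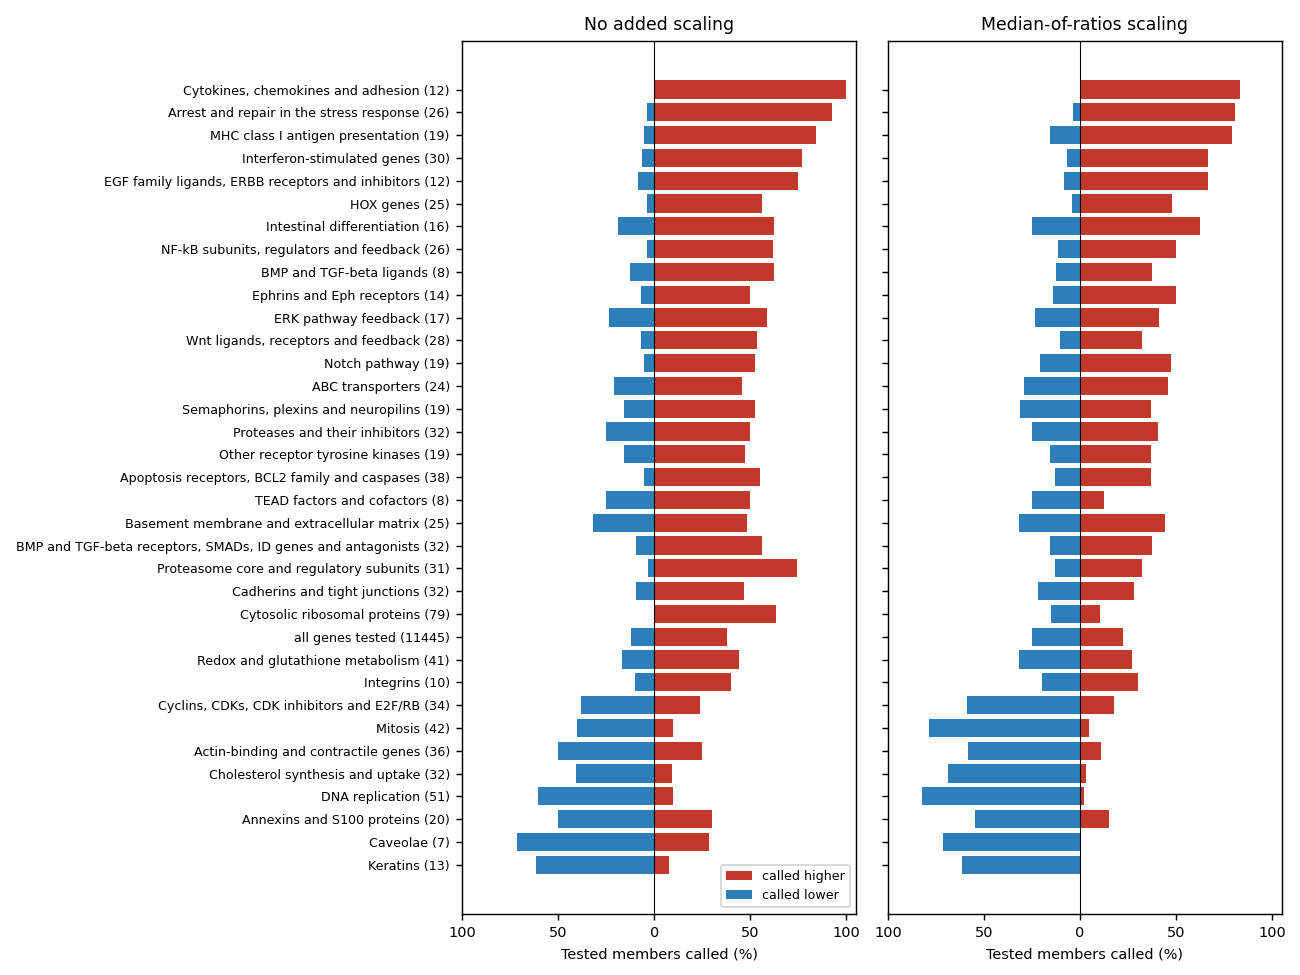
Share of the tested members of each list called higher (red) and lower (blue) in the wild type TEAD4 line, without added scaling (left) and with median-of-ratios scaling (right), with the number tested in brackets and lists in the order of their scaled median log2 change. All tested genes stand at 37.6% and 12.2% on the left and 22.5% and 25.2% on the right. The cytokine list is at the top (12 of 12 higher, then 10) and the keratin list at the bottom (8 of 13 lower both ways). Some cytokine members passed the filter only through libraries of the TEAD4 lines.

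Whether a change also separated the wild type line from the line with TEAD4 K178R was tested as a contrast of these 2 lines in the same fit. Over all tested genes, the wild type line was higher than K178R in 34.5% and lower in 10.4% on the deposited values, and higher in 19.8% and lower in 22.7% after median-of-ratios scaling. Of the 2572 genes that rose against control, 1909 were also higher than in K178R, 72 were lower and 591 were not called on the deposited values. After scaling 1458 were higher, 131 lower and 983 not called. Of the 1402 that fell, 717 were also lower than in K178R, 101 were higher and 584 were not called, and after scaling 1081 were lower, 48 higher and 273 not called. Both contrasts share the wild type libraries, so these counts are not independent of each other. Of the 67 genes that rose by a log2 of at least 1, 49 were higher than in K178R, 7 lower and 11 not called, and 49, 8 and 10 after scaling. Of the 22 that fell by as much, 8 were lower than in K178R, 6 higher and 8 not called, and after scaling 13, 4 and 5.

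Genes of arrest and death, NF-kB and antigen presentation made up most of the 10 largest differences among genes that rose. CDKN1A read 30.8 and 30.6 FPKM in the K178R libraries, against 149 and 152 in wild type (wild type minus K178R log2 2.26, adjusted p = 2.66e-08). GDF15 read 17.2 and 18.4 FPKM with K178R, BBC3 3.68 and 3.88 and TNFRSF10C 1.16 and 1.27. In all 4 genes the wild type libraries stood above those of both other lines, which the rule that picked them largely sets. RELB (3.46 and 4.60 FPKM), BIRC3 (0.139 and 0.174) and PSMB9 (0.767 and 1.17) in the K178R libraries likewise lay under the wild type values. BIRC3 passed the filter only through the wild type libraries, which favours that order. Other large rises did not separate the lines in that direction. BAMBI read 29.99 and 29.6 FPKM with K178R (wild type minus K178R log2 -0.016, adjusted p = 0.84), GLRX 13.05 and 13.2 and COL4A5 6.87 and 7.03, none called between the 2 lines with or without scaling. HOXB8 was not called either, and FHL1 was higher with K178R (27.2 and 27.3 FPKM). Among falls, BMP4 read 12.1 and 10.7 FPKM with K178R and was called lower in the wild type line only after scaling (adjusted p = 0.139 by limma without it and 0.0275 with it). By contrast, KRT8 (1382 and 1379 FPKM), KRT18 (883 and 897), TAGLN (2.97 and 3.39) and ZBTB20 (6.18 and 5.97) were lower in the wild type line both ways. CYP24A1, a vitamin D hydroxylase, fell against control (4.39 and 4.62 to 2.86 and 2.59 FPKM) and was still higher than with K178R (0.878 and 0.972 FPKM). ADIRF, an adipogenesis factor, did the same (109 and 102 to 65.9 and 66.8 FPKM, against 33.7 and 35.7 with K178R).

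**Figure D5:**
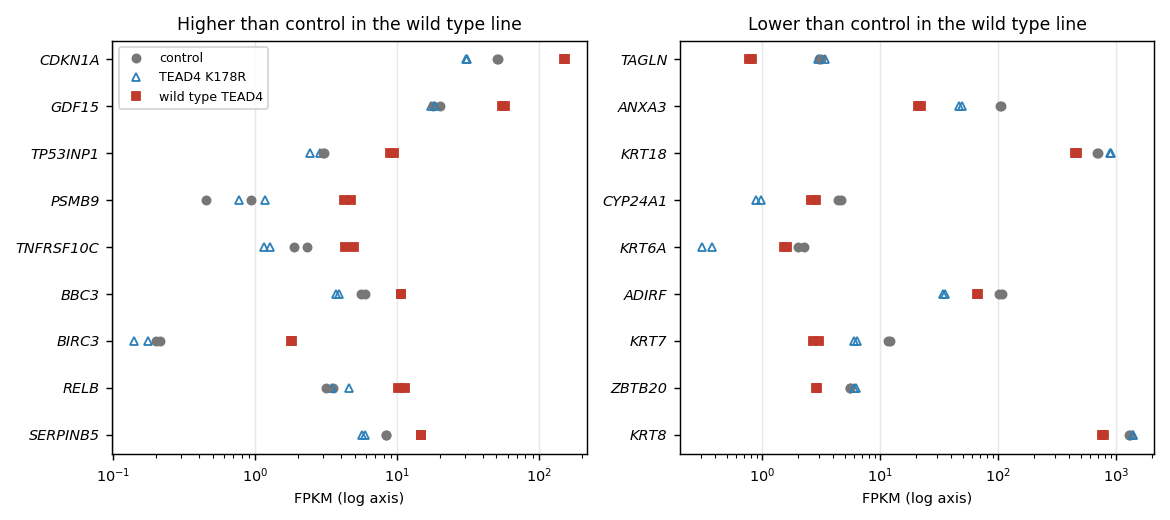
FPKM on a log axis, per library, of genes that rose (left) or fell (right) in the wild type line and differed most from the TEAD4 K178R line; control is shown as grey circles, K178R as open blue triangles and wild type TEAD4 as red squares. On the left every wild type point lies above the points of both other lines, which the choice of these genes largely sets. On the right CYP24A1, KRT6A and ADIRF have K178R points below the wild type ones. LTB and HIST1H2BO, each listed at 0 in a library, are not drawn.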

How the data were processed

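RNA of 6 libraries of 3 stable HCT116 lines was sequenced, and the authors deposited 1 table of FPKM per library. Per the submitters' processing notes, Bowtie 0.12.2 and genome build hg18 were used. The program that made the FPKM, its annotation, its use of strand and its handling of shared reads are not stated in any source used here. Tables were joined by gene name. Of 20030 rows, 4 with repeated names were left out, 4066 were at 0 in every library, and 23 kept rows hold names that a spreadsheet had turned into dates and were not named. A gene was tested where 2 or more of the 6 libraries reached 0.5 FPKM, which held for 11445 genes and not for 8581.

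Tests used limma 3.58.1 in R 4.3.3 on log2(FPKM + 1), with all 6 libraries, 3 line means, a trended prior variance and Benjamini-Hochberg adjustment over all tested genes, two-sided, at 0.05. FPKM are no counts, so no count model was used, and the depth behind each value is unknown. The median-of-ratios factors over genes above 0 in all libraries were 0.972 and 0.968 in control, 1.06 in both wild type libraries, and 0.977 in both K178R libraries. The script was tested on simulated data. The replicate numbers do not pair the libraries: the correlations of same-numbered deviations from the line means were 0.0154, -0.0311 and 0.0323. Named genes were TEAD4, the 20 largest rises and falls as defined in the report, the 10 largest FPKM differences in each direction, genes near 0 in 1 line only, the 10 largest differences from K178R among genes called against control in each direction, and list members taken by the size of their change; some members with small changes were added for their roles, after their values were seen. The lists and the genes described were chosen with earlier results of these data known. The motifs other than GGAATG, the neighbour runs and scaling over tested genes were chosen after the data were seen. Gene positions are from GENCODE release 29 and promoters from RefSeq (GRCh38.p14), both of another build than the authors' and matched by gene name only. Some list members are not reported by name here. Alternatives covered scaling, pseudocount, filter, libraries fitted, prior variance, averaged controls, replicate block and each library left out. Figures were drawn with matplotlib 3.10.9.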

Additional observations from a re-analysis of the deposited data

How the results depend on the processing

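The number of genes called on each side rested on the scaling between libraries. On the deposited values 4309 were higher and 1402 lower. The higher count was 2572 with median-of-ratios scaling, 2756 with the same scaling over tested genes only and 2765 with upper-quartile scaling, and the lower count was 2884, 2656 and 2652. Scaling to the same total gave 3537 and 1858. The count of rises of at least 1 on the log2 scale was 67, and 258 with a pseudocount of 0.1 and 112 with 0.5; that of falls was 22, and 51 with 0.1. Leaving out 1 library at a time gave 3219 to 3504 higher and 992 to 1155 lower genes, and 65 to 74 rises and 21 to 25 falls of at least 1. With the replicate number as a block the counts were 4178 and 1334; the numbers do not pair the libraries, so the block is a check only, and 1 named gene, PSMA7, was no longer called (adjusted p = 0.0503 by limma). Of the 319 tested genes named in the text, 281 kept their direction and their side of the threshold under each alternative run for them; 296 were run under all 16, of which 264 kept both, and the other 23 had a mean under 1 FPKM and so were not run under that filter. Direction turned for 8 genes, all near 0 and none called on the deposited values. By median-of-ratios scaling, the same over tested genes, and upper quartile, AXIN2 went to -0.027, -0.014 and -0.014, CALR to -0.12, -0.10 and -0.10, PMAIP1 to -0.12, -0.10 and -0.10, and RB1 to -0.025, -0.011 and -0.010. With equal totals CALR was at -0.040 and PMAIP1 at -0.042. Without 1 library each, the log2 change of BCL3 was -0.079 to 0.074, the log2 change of CALR -0.0072 to 0.016, the log2 change of CDK1 -0.033 to 0.0062, the log2 change of PMAIP1 -0.084 to 0.088, the log2 change of RELA -0.029 to 0.026 and the log2 change of TEAD2 -0.072 to 0.058. Apart from the scalings, whose construction lowers every wild type value relative to control, the cause was not tested. With 2 libraries a line and no read numbers, small changes at low FPKM are the least certain.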
